A study of Mus musculus with 7 samples.

Results

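Guidance ligands and receptors are the secreted and membrane proteins first known for steering growing axons. They were taken here as all genes of the array annotation whose symbols name a Slit, a Robo receptor, a netrin, a netrin receptor (Unc5a to Unc5d, Dcc, Neo1), a semaphorin of classes 3 to 7, a plexin, a neuropilin, an ephrin or an Eph receptor. The rule found 69 genes of 18193, measured by 156 probe sets. They comprise 3 Slits, 4 Robo receptors, 4 netrins, 6 netrin receptors, 7 class 3 semaphorins, 13 semaphorins of classes 4 to 7, 9 plexins, 2 neuropilins, 5 ephrin-A and 3 ephrin-B genes, 9 EphA and 4 EphB receptor genes. Where a gene had several probe sets, as 46 of the 69 did, the one with the highest mean was used.

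Expression was measured on 7 Affymetrix Mouse Genome 430 2.0 arrays. Microdissected mouse embryonic kidney (E12.5) gave 2 arrays of ureteric bud tip, 2 of ureteric bud stalk and 2 of metanephric mesenchyme, labelled as biological replicates. A single array held a freshly isolated subclone of mIMCD-3, a mouse inner medullary collecting duct cell line, grown to confluency in DMEM, so it stands for 1 clone of cultured cells. The labels give no strain or genotype for the embryos and do not say how many were pooled.

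At this stage the epithelial ureteric bud grows and branches within the metanephric mesenchyme, whose cells signal to its tips and later form nephrons. Slits bind Robo receptors, netrins bind Dcc, neogenin and the Unc5 receptors, class 3 semaphorins bind neuropilins paired with plexins, most other semaphorins bind plexins directly, and ephrins bind Eph receptor kinases on neighbouring cells. In the mouse kidney, Slit2 and Robo2 restrict where the ureteric bud forms, and loss of either gives extra buds.

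Values are log2 of the deposited intensities. Across all probe sets, the array medians lay between 5.51 and 5.62 in the tissues and at 5.40 in mIMCD-3, and the lower quartiles between 3.99 and 4.23. Replicate arrays differed most in tip (SD of replicate 1 minus replicate 2 over probe sets 0.35), less in mesenchyme (0.26) and least in stalk (0.19). Cdh1, the epithelial cadherin gene, read 11.09 and 10.97 in tip, 10.45 and 10.49 in stalk, 4.0 and 3.68 in mesenchyme and 10.88 in mIMCD-3. Marker levels of the dissected parts followed their labels for epithelium and nephron progenitors, with mean levels of 14 listed ureteric epithelium genes (13 measured) of 10.64 and 10.44 in tip, 9.78 and 9.73 in stalk and 5.73 and 5.70 in mesenchyme. The stalk arrays carried renal stroma markers almost at the mesenchyme level: the mean of 11 measured stroma genes was 7.35 and 6.98 in tip, 10.33 and 10.25 in stalk and 10.57 and 10.48 in mesenchyme. The 15 endothelium markers averaged 6.31 and 6.21 in tip, 7.37 and 7.39 in stalk and 8.05 and 7.93 in mesenchyme. The 12 nephron progenitor markers averaged 6.65 and 6.43 in tip, 7.90 and 7.85 in stalk and 9.48 and 9.32 in mesenchyme, and 10 measured neuron and neural crest markers 5.19 and 5.27 in tip, 6.01 and 6.03 in stalk and 6.82 and 6.72 in mesenchyme. The levels of these other cell types therefore moved with several comparisons below, and their part in each result was not tested. In dissected tissue, fewer cells of a type and less RNA per cell cannot be told apart.

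Differences come from a limma fit of the 6 tissue arrays and are log2 values, each followed by the fit's standard error. A gene was called at an adjusted p under 0.05 (Benjamini-Hochberg over all 18193 genes). The comparisons of tip and of stalk with mesenchyme share the mesenchyme arrays.

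Of the 69 guidance genes, 34 were called in at least 1 of the 3 pairwise comparisons and 35 in none. The matching share of all genes was not counted, so the shares below are given for each comparison apart. Against mesenchyme, 16 were higher in tip and 18 lower, where 7.38% and 8.37% of all genes were called. In stalk 12 were higher and 2 lower than in mesenchyme, where 4.3% and 1.24% of all genes were called. Between tip and stalk, 4 guidance genes were higher in tip and 15 lower, where 2.86% and 6.97% of all genes were called. The median absolute difference of the 69 genes was 0.56 for tip against mesenchyme, 0.23 for stalk against mesenchyme and 0.28 for tip against stalk, and over all genes it was 0.17, 0.14 and 0.20. The map of all 69 genes by array shows these shifts role by role.

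**Figure D1:**
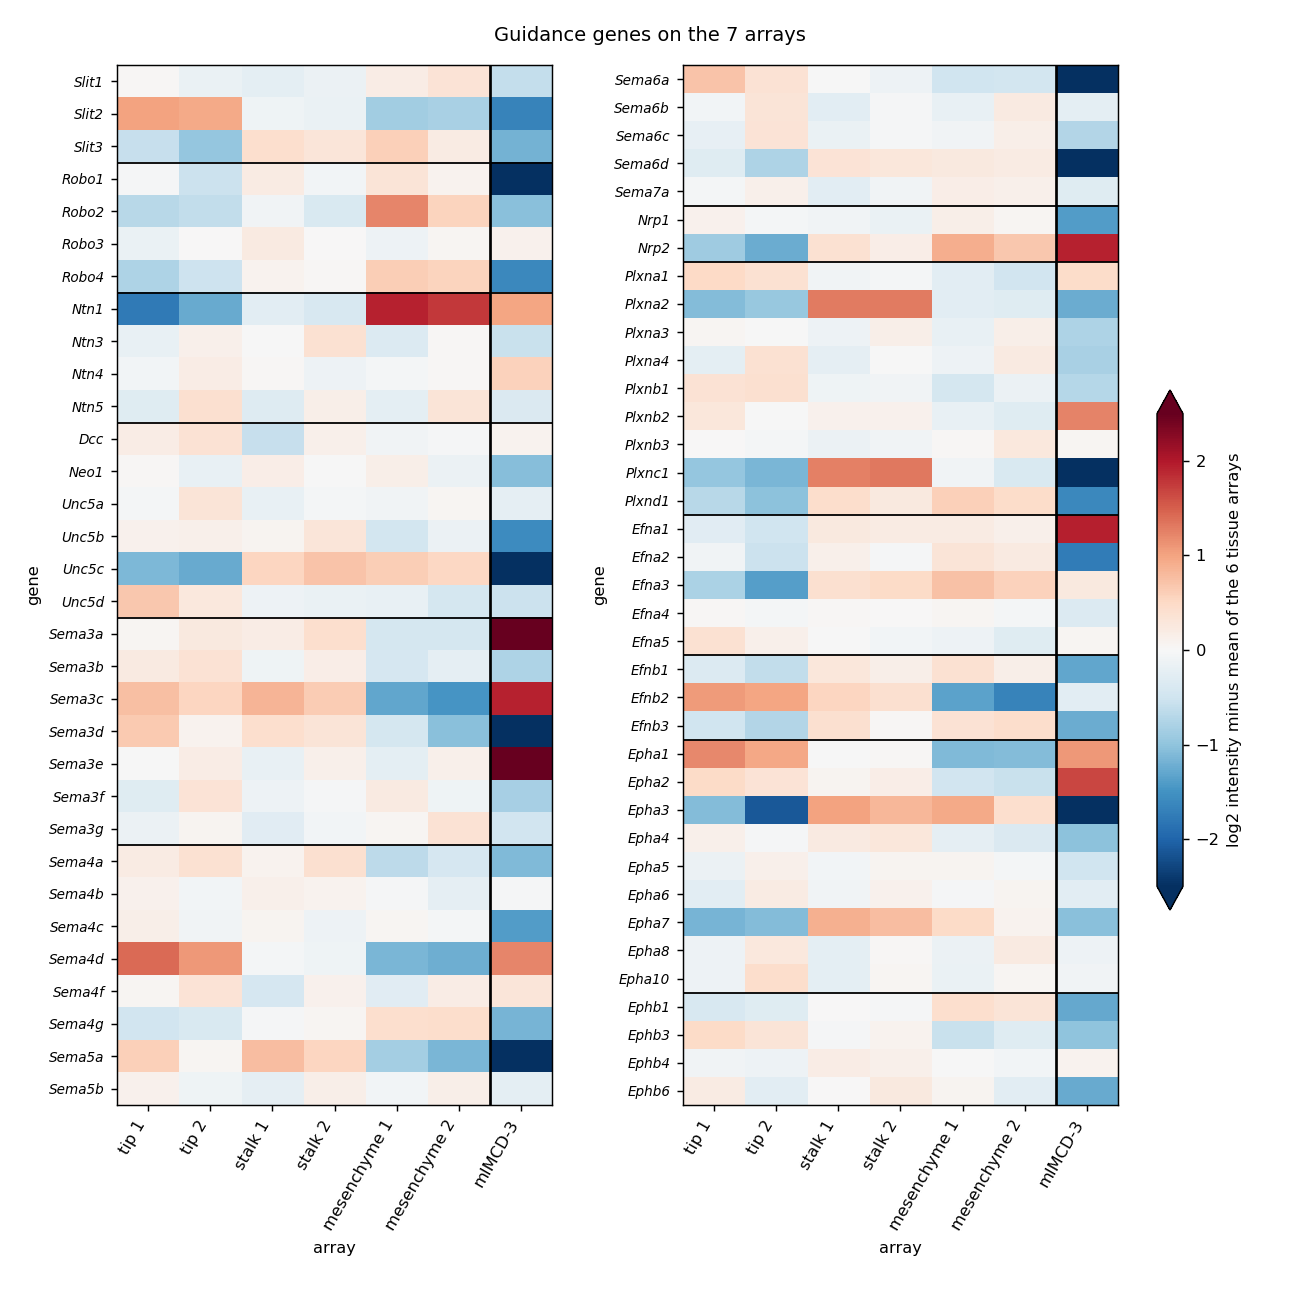
Log2 intensity of each of the 69 guidance genes on each array (columns), minus the gene's mean over the 6 tissue arrays, in 2 panels of rows with black lines between roles. Red is above and blue below that mean, with the colour scale ending at 2.5 log2 units. Slit2, Efnb2, Epha1 and Sema4d are reddest in tip, Plxna2 and Plxnc1 in stalk and Ntn1 in mesenchyme, and the darkest cells of the mIMCD-3 column include Sema3a and Sema3e (red) and Sema3d, Sema5a and Unc5c (blue).

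With the mean of tip and stalk taken as bud, 15 guidance genes were higher in bud than in mesenchyme and 10 lower, where 6.13% and 4.96% of all genes were called. This mean joins tip and stalk values that differed for many of the genes, so the results below are given for tip and stalk apart. Arrays of the same replicate number deviated together. With the replicate number as a block, 21 were higher and 17 lower in bud than in mesenchyme (9.1% and 8.53% of all genes). It gave 15 higher and 5 lower in stalk than in mesenchyme (6.77% and 3.17% of all genes). The block gave 19 higher and 20 lower in tip than in mesenchyme (11.2% and 12.8% of all genes). It gave 8 higher and 16 lower in tip than in stalk (8.92% and 11.7% of all genes).

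Among the Slits, Slit2 was highest in tip, intermediate in stalk and lowest in mesenchyme, while Slit3 was lower in tip than in both other parts. Slit2, the secreted ligand that limits budding, read 11.21 and 11.16 in the tip arrays, 10.09 and 10.04 in the stalk arrays and 9.34 and 9.41 in the mesenchyme arrays. All 3 groups were separate, and each step was called. Slit2 was 3.52-fold higher in tip than in mesenchyme (1.82 ± 0.12, SE; adjusted p = 3.88e-05), 2.17-fold higher in tip than in stalk (1.12 ± 0.12; adjusted p = 0.00101) and 1.62-fold higher in stalk than in mesenchyme (0.70 ± 0.12; adjusted p = 0.0152). Its 3 probe sets had the same sign in each comparison. The smallest step, stalk over mesenchyme, was lost without any 1 stalk or mesenchyme array and with the mean of the probe sets (adjusted p up to 0.204). Slit3 read 5.86 and 5.46 in the tip arrays, 6.85 and 6.73 in the stalk arrays and 7.02 and 6.64 in the mesenchyme arrays, so that stalk and mesenchyme overlapped and tip lay below both. It was lower in tip than in mesenchyme (-1.17 ± 0.19; adjusted p = 0.00403) and than in stalk (-1.14 ± 0.19; adjusted p = 0.00792). Of 13 ureteric epithelium markers, 6 were also higher in tip than in stalk (median difference 0.58), and their part in the steps of Slit2, Sema4d and Epha1 was not tested. Slit1 differed by -0.32 ± 0.14 between tip and mesenchyme and was not called.

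Of the 4 Robo receptors, Robo2 and Robo4 were lower in tip than in mesenchyme, and none was called higher. Robo2 read 3.23 and 3.31 in the tip arrays, 3.83 and 3.53 in the stalk arrays and 5.13 and 4.46 in the mesenchyme arrays. Its tip and stalk arrays lay below the lower quartile of all probe sets, which leaves the sizes of its differences uncertain. It was lower in tip than in mesenchyme (-1.53 ± 0.22; adjusted p = 0.0025) and lower in stalk (-1.12 ± 0.22; adjusted p = 0.0287). The stalk call was lost without stalk replicate 2 or mesenchyme replicate 1 and in the fit of the stalk and mesenchyme arrays alone. Leaving out either tip array gave that same fit. Over the alternatives the difference ran from -1.45 to -0.78. Tip and stalk did not differ beyond the threshold for Robo2 (-0.41 ± 0.22; adjusted p = 0.344). Robo4, a Robo of endothelium, read 5.35 and 5.60 in the tip arrays, 6.20 and 6.15 in the stalk arrays and 6.74 and 6.68 in the mesenchyme arrays. It was lower in tip than in mesenchyme (-1.24 ± 0.14; adjusted p = 0.000539) and than in stalk (-0.70 ± 0.14; adjusted p = 0.0157), alongside the endothelium markers, of which 13 of 15 were lower in tip in each of these comparisons. Their part in the Robo4 result was not tested. Without stalk replicate 1 or stalk replicate 2, Robo4 was not called between tip and stalk (adjusted p up to 0.152), and with the block it was also lower in stalk than in mesenchyme (adjusted p = 0.0232). Robo1, a main Slit receptor, was not called in any comparison of the fit without a block (-0.49 ± 0.20 for tip against mesenchyme; adjusted p = 0.181) and was lower in tip with the block (adjusted p = 0.0144). Robo3 was not called.

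The promoter of Slit2 is printed because Slit2 separated all 3 dissected parts, and that of Sema3c because its difference was shared by tip and stalk. The sequences are from RefSeq on GRCm38.p6 and run 5′ to 3′ on the gene's strand, from 250 bases before the annotated start to 50 after it. Capitals mark the GC box GGGCGG, bound by Sp1-type factors, and the TATA box TATAAA, on either strand.
Slit2: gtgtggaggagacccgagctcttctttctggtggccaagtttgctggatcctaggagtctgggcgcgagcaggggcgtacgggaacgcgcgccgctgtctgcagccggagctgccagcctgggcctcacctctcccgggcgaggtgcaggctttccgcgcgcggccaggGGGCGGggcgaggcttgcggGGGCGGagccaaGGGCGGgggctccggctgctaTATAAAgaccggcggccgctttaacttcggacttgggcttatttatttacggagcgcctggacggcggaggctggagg
Sema3c: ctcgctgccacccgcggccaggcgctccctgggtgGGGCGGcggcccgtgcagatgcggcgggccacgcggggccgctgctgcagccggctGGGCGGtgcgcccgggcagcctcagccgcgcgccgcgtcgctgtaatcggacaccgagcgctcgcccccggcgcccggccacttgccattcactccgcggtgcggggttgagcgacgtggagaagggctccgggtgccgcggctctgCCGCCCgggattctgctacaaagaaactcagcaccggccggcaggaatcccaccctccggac
The Slit2 window (chr5:47982905-47983204, plus strand) held 3 GC boxes and 1 TATA box, and the Sema3c window (chr5:17574566-17574865, plus strand) 3 GC boxes and 0 TATA boxes. In the whole table of 32851 promoters, 35.66% held a GC box and 13.62% a TATA box. Of the 75 promoters of guidance genes, 54 held a GC box and 2 a TATA box. The grainyhead motif AACNGGTT, the ETS motif CCGGAAGT and the E-box CAGGTG, held by 2.09%, 3.89% and 20.21% of all promoters, were searched on both strands and had 0 matches in these windows. The windows held 30 and 42 CpG dinucleotides, against a median of 7 over all promoters. These matches describe letters and not binding. Of the 69 genes, 59 had a promoter in the table.

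With the probe sets used, Ntn1, the gene of the secreted guidance cue netrin-1, had the largest difference of the family between dissected parts. It read 4.59 and 5.09 in the tip arrays, 6.08 and 5.95 in the stalk arrays and 8.27 and 8.11 in the mesenchyme arrays. Mesenchyme was highest, stalk intermediate and tip lowest, with no overlap. Ntn1 was 10.2-fold lower in tip than in mesenchyme (-3.35 ± 0.18; adjusted p = 1.63e-05), 4.51-fold lower in stalk than in mesenchyme (-2.17 ± 0.18; adjusted p = 0.00041) and 2.26-fold lower in tip than in stalk (-1.18 ± 0.18; adjusted p = 0.00589). These calls held in all 12 alternatives tried at the gene level. Of the 12 nephron progenitor markers, 10 were lower in tip and 8 in stalk than in mesenchyme, and of the 10 neuron markers 7 and 5. Another neuron marker, 1 of the 10, was higher in stalk than in mesenchyme. Their part in the Ntn1 and Robo2 results was not tested. The second probe set of Ntn1 gave smaller differences of the same sign, from -0.31 to -0.68. None of Ntn3, Ntn4 and Ntn5 was called in limma, with differences of tip from mesenchyme of 0.12, 0.06 and 0.02; 0 of them passed an unadjusted p of 0.05 in the pairwise comparisons, and 0 passed with the block.

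Of the 6 netrin receptors, Unc5c and Unc5d changed in tip. Unc5c, a receptor known for repulsion by netrin-1, read 7.78 and 7.65 in the tip arrays, 9.45 and 9.62 in the stalk arrays and 9.52 and 9.43 in the mesenchyme arrays. Stalk and mesenchyme overlapped, and both lay above tip. Unc5c was 3.39-fold lower in tip than in mesenchyme (-1.76 ± 0.13; adjusted p = 7.31e-05) and 3.54-fold lower than in stalk (-1.82 ± 0.13; adjusted p = 0.000155), and its 2 probe sets had the same sign. In all, 12 guidance genes were lower in tip than in both stalk and mesenchyme, with no call between those. Among them were Slit3, Robo4, Unc5c, Nrp2, Efna3 and Epha7. Of all genes, 8.37% were lower in tip than in mesenchyme and 6.97% lower in tip than in stalk. The share of all genes with the joint pattern was not counted, so the 12 have no reference. The 11 stroma markers were also lower in tip in both comparisons, and their part in these results was not tested. Unc5d was higher in tip than in mesenchyme (0.78 ± 0.17; adjusted p = 0.0172), at 4.72 and 4.32 in tip and 3.86 and 3.62 in mesenchyme, where it lay below the lower quartile, and it was not called without mesenchyme replicate 2 (adjusted p = 0.106). With the block Unc5d was also higher in tip than in stalk (adjusted p = 0.00754). Unc5b, at 8.06 and 8.09 in the tip arrays, 8.03 and 8.27 in the stalk arrays and 7.49 and 7.81 in the mesenchyme arrays, was not called in the fit without a block. With the block it was higher than in mesenchyme in tip (0.42; adjusted p = 0.0272) and in stalk (0.50; adjusted p = 0.0267). The receptors for attraction were not called: Dcc differed by 0.33 ± 0.22 and Neo1, the neogenin gene, by -0.08 ± 0.16 between tip and mesenchyme. Another probe set of Dcc was higher in stalk than in mesenchyme (1.24 ± 0.17, adjusted p = 0.00524 over all probe sets), so the Dcc result depends on the probe set. Unc5a was not called either.

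Class 3 semaphorins are secreted, and those called in the pairwise comparisons were all higher in tip or stalk than in mesenchyme. Of 7, 4 were higher than mesenchyme in tip and 3 in stalk, and 0 were lower. With the probe sets used, 0 differed between tip and stalk in the fits with and without the block. With the block, 1 of the 7 was lower in bud, the mean of tip and stalk, than in mesenchyme. Sema3c read 11.03 and 10.81 in the tip arrays, 11.12 and 10.92 in the stalk arrays and 8.98 and 8.79 in the mesenchyme arrays. Tip and stalk overlapped and lay above mesenchyme, by 2.04 ± 0.15 in tip (adjusted p = 6.22e-05) and 2.13 ± 0.15 in stalk (adjusted p = 0.000166), in all 12 alternatives. Sema3d read 9.37 and 8.80 in the tip arrays, 9.13 and 9.03 in the stalk arrays and 8.27 and 7.67 in the mesenchyme arrays. It was higher by 1.12 ± 0.24 in tip (adjusted p = 0.018) and by 1.11 ± 0.24 in stalk (adjusted p = 0.0421). These calls were lost without mesenchyme replicate 2, the stalk call also without either stalk array and the tip call without tip replicate 1 (adjusted p up to 0.202).

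Sema3a, which restrains branching of the bud in mouse kidney explants, read 6.83 and 7.03 in the tip arrays, 6.96 and 7.20 in the stalk arrays and 6.35 and 6.34 in the mesenchyme arrays. It was higher by 0.73 ± 0.14 in stalk (adjusted p = 0.0249) and 0.58 ± 0.14 in tip (adjusted p = 0.029). The stalk call of Sema3a was lost without any 1 stalk or mesenchyme array. Its tip call was lost without tip replicate 2 or either mesenchyme array, with only the compared arrays and with the mean of the probe sets. Sema3b was higher in tip (0.63 ± 0.15; adjusted p = 0.0283), with its 3 probe sets between 0.63 and 1.53 and one of them also called higher in stalk, and was not called without tip replicate 2 or either mesenchyme array (adjusted p up to 0.175). Sema3e, Sema3f and Sema3g were not called in the pairwise comparisons with the probe sets used, but 2 other probe sets of Sema3f were higher in tip than in stalk.

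Of the 13 semaphorins of classes 4 to 7, which are mostly membrane-bound, 4 were higher in tip than in mesenchyme and 2 lower. Sema4d, a ligand of Plxnb1, read 9.59 and 9.27 in the tip arrays, 8.14 and 8.07 in the stalk arrays and 7.03 and 6.96 in the mesenchyme arrays. It was 5.42-fold higher in tip than in mesenchyme (2.44 ± 0.15; adjusted p = 2.49e-05), 2.51-fold higher in tip than in stalk (1.33 ± 0.15; adjusted p = 0.00112) and 2.16-fold higher in stalk than in mesenchyme (1.11 ± 0.15; adjusted p = 0.00398). Tip, stalk and mesenchyme thus had the same order for Sema4d as for Slit2 and Epha1. Of its 3 probe sets, 1 gave -0.04 for tip against mesenchyme, and with their mean the stalk call was lost (adjusted p = 0.113).

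Sema5a read 8.21 and 7.67 in the tip arrays, 8.38 and 8.15 in the stalk arrays and 6.77 and 6.47 in the mesenchyme arrays. It was higher than mesenchyme in stalk (1.65 ± 0.21; adjusted p = 0.00308) and in tip (1.32 ± 0.21; adjusted p = 0.00366), and tip and stalk were not called apart (-0.33 ± 0.21). Sema4a was higher in tip (0.83 ± 0.16; adjusted p = 0.00985) and in stalk (0.79 ± 0.16; adjusted p = 0.0302). Without mesenchyme replicate 1 both Sema4a calls were lost, and the stalk call also without mesenchyme replicate 2 or either stalk array (adjusted p up to 0.284). Sema6a was higher in tip than in mesenchyme (1.01 ± 0.15; adjusted p = 0.00273) and than in stalk (0.61 ± 0.15; adjusted p = 0.0457). The second of these calls was lost with the mean of the probe sets, with only the compared arrays and without tip replicate 1 or either stalk array. Sema6d was lower in tip than in mesenchyme (-0.76 ± 0.17; adjusted p = 0.0199) and than in stalk (-0.85 ± 0.17; adjusted p = 0.0188), through 1 of its 4 probe sets. With the mean of the probe sets both Sema6d calls were lost, the first also without either mesenchyme array and the second without either stalk array (adjusted p up to 0.319). Sema4g was lower in tip than in mesenchyme (-0.86 ± 0.12; adjusted p = 0.00218), and with the block it was also lower in stalk than in mesenchyme (adjusted p = 0.0373) and in tip than in stalk (adjusted p = 0.0179).

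**Figure D2:**
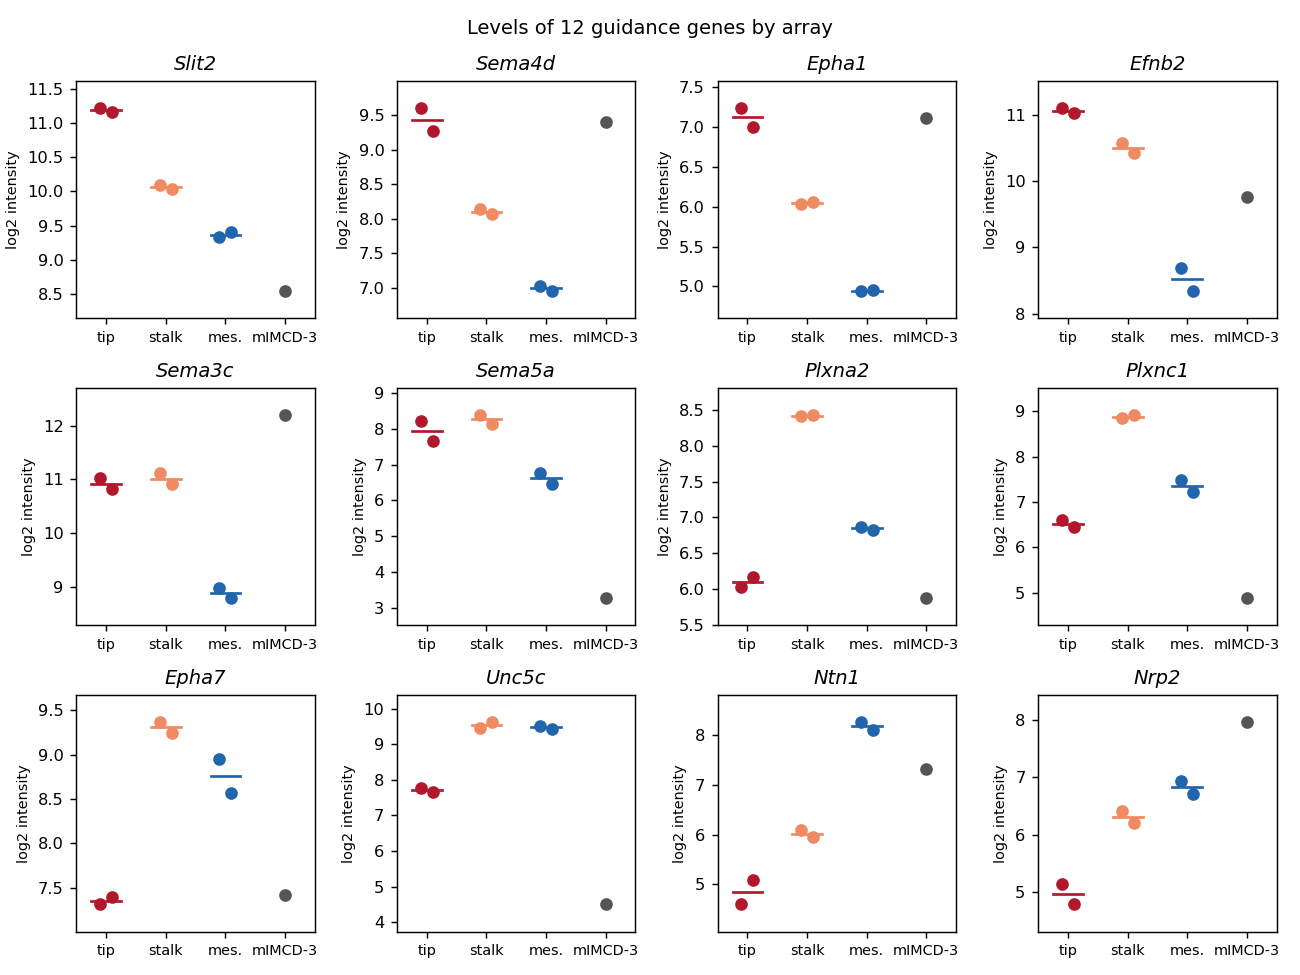
Log2 intensity (vertical axes, a scale of its own per gene) of 12 guidance genes on every array, with points for arrays and lines for group means in tip, stalk, mesenchyme (mes.) and mIMCD-3, which has 1 array and no mean. Slit2, Sema4d and Epha1 step down across tip, stalk and mesenchyme, Plxna2 and Plxnc1 peak in stalk, Unc5c is low in tip, and Ntn1 peaks in mesenchyme.

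The plexins, which transmit semaphorin signals, included 2 genes with their highest level in stalk. Plxna2, a receptor for class 6 semaphorins such as Sema6a, read 6.03 and 6.17 in the tip arrays, 8.41 and 8.43 in the stalk arrays and 6.86 and 6.83 in the mesenchyme arrays. Plxnc1, the receptor of Sema7a, read 6.61 and 6.44 in the tip arrays, 8.85 and 8.91 in the stalk arrays and 7.49 and 7.21 in the mesenchyme arrays. For both genes all stalk arrays lay above all mesenchyme arrays, which lay above all tip arrays. Plxna2 was 2.98-fold higher in stalk than in mesenchyme (1.57 ± 0.12; adjusted p = 0.000288) and 4.98-fold lower in tip than in stalk (-2.32 ± 0.12; adjusted p = 4.14e-05). Plxnc1 was 2.88-fold higher in stalk than in mesenchyme (1.53 ± 0.15; adjusted p = 0.000799) and 5.1-fold lower in tip than in stalk (-2.35 ± 0.15; adjusted p = 7.86e-05). In tip both were lower than in mesenchyme, at -0.74 ± 0.12 for Plxna2 (adjusted p = 0.00487) and -0.83 ± 0.15 for Plxnc1 (adjusted p = 0.00668), the second of which was lost without mesenchyme replicate 1 and with the mean of the probe sets (adjusted p up to 0.0866). All 4 probe sets of Plxna2 were called in each of the 3 comparisons. Of the 6 of Plxnc1, 5 were called between tip and stalk, 4 between stalk and mesenchyme and 1 between tip and mesenchyme. The stroma list was lower in tip than in stalk for 11 of 11 measured genes. Against mesenchyme, 1 stroma gene was higher in stalk and 3 were lower, with a median of -0.16. The higher one, Tbx18, had the order of these plexins, at 6.43 and 5.48 in tip, 11.16 and 10.93 in stalk and 9.77 and 9.51 in mesenchyme. The part of stroma in the plexin results was not tested. The promoters of Plxna2 (chr1:194619579-194619878, plus strand) and Plxnc1 (chr10:94944796-94945095, minus strand) are shown because these genes moved together in all 3 comparisons, with capitals marking GC boxes as above.
Plxna2: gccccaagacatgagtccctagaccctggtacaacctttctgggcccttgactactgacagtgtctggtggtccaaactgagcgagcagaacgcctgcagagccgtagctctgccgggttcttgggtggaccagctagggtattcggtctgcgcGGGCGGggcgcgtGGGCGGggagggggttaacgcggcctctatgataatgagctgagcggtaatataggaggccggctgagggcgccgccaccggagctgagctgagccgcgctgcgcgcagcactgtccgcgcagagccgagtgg
Plxnc1: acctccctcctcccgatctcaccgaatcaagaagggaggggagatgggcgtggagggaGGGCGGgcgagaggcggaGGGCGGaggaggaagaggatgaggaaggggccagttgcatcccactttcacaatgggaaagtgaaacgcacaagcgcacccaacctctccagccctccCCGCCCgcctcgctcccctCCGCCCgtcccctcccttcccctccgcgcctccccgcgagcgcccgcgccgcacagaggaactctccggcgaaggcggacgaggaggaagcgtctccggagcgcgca
They held 2 and 4 GC boxes, 25 and 30 CpG dinucleotides and 0 matches to the TATA box, grainyhead, ETS and E-box motifs.

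Plxnd1, a plexin of endothelium and the receptor of Sema3e, read 7.30 and 6.97 in the tip arrays, 8.43 and 8.24 in the stalk arrays and 8.60 and 8.45 in the mesenchyme arrays. It was lower in tip than in mesenchyme (-1.39 ± 0.16; adjusted p = 0.000661) and than in stalk (-1.20 ± 0.16; adjusted p = 0.00262), again alongside the endothelium markers. Plxnb1 was higher in tip than in mesenchyme (0.67 ± 0.14; adjusted p = 0.0147), with its other probe set at 1.36, and was not called without mesenchyme replicate 1 (adjusted p = 0.119). Plxna1 was higher in tip than in mesenchyme (0.81 ± 0.14; adjusted p = 0.00485). With the block both were also higher in tip than in stalk (adjusted p = 0.0206 for Plxnb1 and 0.0134 for Plxna1). Plxnb2, which with its ligand Sema4c promotes ureteric branching in the mouse, read 9.89 and 9.60 in the tip arrays, 9.72 and 9.71 in the stalk arrays and 9.42 and 9.30 in the mesenchyme arrays. It was not called against mesenchyme in tip (0.38 ± 0.14; adjusted p = 0.132) without the block and passed with it (adjusted p = 0.0378). Sema4c differed by 0.03 ± 0.14 between tip and mesenchyme and was not called. Plxna3, Plxna4 and Plxnb3 were not called.

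Of the neuropilins, co-receptors for class 3 semaphorins and for VEGF, Nrp2 was lower in tip and Nrp1 was not called. Nrp2 read 5.14 and 4.79 in the tip arrays, 6.41 and 6.20 in the stalk arrays and 6.94 and 6.71 in the mesenchyme arrays. It was lower in tip than in mesenchyme (-1.86 ± 0.17; adjusted p = 0.000198) and than in stalk (-1.34 ± 0.17; adjusted p = 0.00209), and with the block also lower in stalk than in mesenchyme (adjusted p = 0.0154). Of the 4 probe sets of Nrp2, only the one used was called, and with their mean the difference between tip and stalk was lost (adjusted p = 0.183). Nrp1 read 11.10 and 10.95 in the tip arrays, 10.91 and 10.84 in the stalk arrays and 11.15 and 11.04 in the mesenchyme arrays and was not called, with a difference of -0.07 ± 0.13 between tip and mesenchyme (adjusted p = 0.849).

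Among the ephrins, Efnb2 was higher in bud, and the other ephrin genes that were called were lower in tip. Efnb2, a membrane ligand of EphB receptors, read 11.09 and 11.02 in the tip arrays, 10.57 and 10.42 in the stalk arrays and 8.69 and 8.34 in the mesenchyme arrays. It was 5.82-fold higher in tip than in mesenchyme (2.54 ± 0.15; adjusted p = 2.5e-05) and 3.94-fold higher in stalk than in mesenchyme (1.98 ± 0.15; adjusted p = 0.000268), with all 4 probe sets called. The excess of tip over stalk of 0.56 ± 0.15 did not pass (adjusted p = 0.0659) and passed with the block (adjusted p = 0.0092). Efnb1 read 8.25 and 7.97 in the tip arrays, 8.87 and 8.74 in the stalk arrays and 8.97 and 8.73 in the mesenchyme arrays, and Efnb3 read 6.87 and 6.65 in the tip arrays, 7.76 and 7.41 in the stalk arrays and 7.73 and 7.82 in the mesenchyme arrays. Both were lower in tip than in mesenchyme (-0.74 ± 0.15, adjusted p = 0.0149, and -1.01 ± 0.16, adjusted p = 0.00402) and than in stalk (-0.70 ± 0.15, adjusted p = 0.0292, and -0.83 ± 0.16, adjusted p = 0.0169). Without tip replicate 2 or stalk replicate 1 neither tip to stalk call held, and Efnb1 also failed there without stalk replicate 2 and against mesenchyme without tip replicate 2 or mesenchyme replicate 1 (adjusted p up to 0.236).

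Efna3, an ephrin-A gene, read 6.0 and 5.42 in the tip arrays, 7.20 and 7.27 in the stalk arrays and 7.53 and 7.37 in the mesenchyme arrays. It was 3.34-fold lower in tip than in mesenchyme (-1.74 ± 0.20; adjusted p = 0.000627) and 2.88-fold lower than in stalk (-1.53 ± 0.20; adjusted p = 0.00233), in all 12 alternatives. Efna1 was lower in tip than in mesenchyme (-0.56 ± 0.13; adjusted p = 0.0266) and than in stalk (-0.62 ± 0.13; adjusted p = 0.0258). Both Efna1 calls were lost without tip replicate 2. The first was also lost without either mesenchyme array or with only the compared arrays. The second was also lost without either stalk array or with the mean of the probe sets. Efna2 and Efna5 were not called without the block. With it Efna2 was lower in tip than in mesenchyme (-0.59; adjusted p = 0.00722), and Efna5 was higher (0.47; adjusted p = 0.014). Efna4 was not called.

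Of the 9 EphA receptor kinases, Epha1 and Epha2 were higher than mesenchyme in tip and stalk, and Epha3 and Epha7 were lower in tip. Epha1 read 7.24 and 7.01 in the tip arrays, 6.04 and 6.06 in the stalk arrays and 4.94 and 4.95 in the mesenchyme arrays. It was 4.51-fold higher in tip than in mesenchyme (2.17 ± 0.13; adjusted p = 2.55e-05), 2.1-fold higher in tip than in stalk (1.07 ± 0.13; adjusted p = 0.00189) and 2.15-fold higher in stalk than in mesenchyme (1.10 ± 0.13; adjusted p = 0.00239). Of its 3 probe sets, 1 had the other sign for tip against mesenchyme (-0.02) and for tip against stalk (-0.15). With their mean the differences were 0.99 for tip against mesenchyme, 0.57 for stalk against mesenchyme and 0.42 for tip against stalk, and the last was not called (adjusted p = 0.05002). Epha2, the ephrin-A1 receptor of many epithelia, was higher than in mesenchyme by 0.93 ± 0.13 in tip (adjusted p = 0.00182) and 0.64 ± 0.13 in stalk (adjusted p = 0.0282). The stalk call of Epha2 was lost without any 1 stalk or mesenchyme array (adjusted p up to 0.312).

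Epha7, which in the mouse acts with Epha4 in the insertion of the nephric duct into the cloaca, read 7.31 and 7.40 in the tip arrays, 9.37 and 9.25 in the stalk arrays and 8.94 and 8.57 in the mesenchyme arrays. It was 2.64-fold lower in tip than in mesenchyme (-1.40 ± 0.16; adjusted p = 0.000612) and 3.87-fold lower than in stalk (-1.95 ± 0.16; adjusted p = 0.000245), with all 4 probe sets called. The probe set used gave the smallest of these differences, which reached -2.65 against mesenchyme and -3.43 against stalk. The stalk arrays of Epha7 lay above its mesenchyme arrays by 0.55 ± 0.16, which passed only with the block (adjusted p = 0.122 without and 0.0313 with it). Epha3 read 5.38 and 4.35 in the tip arrays, 7.47 and 7.30 in the stalk arrays and 7.42 and 6.88 in the mesenchyme arrays, and its tip arrays differed from each other by more than 1 log2 unit. It was 4.86-fold lower in tip than in mesenchyme (-2.28 ± 0.33; adjusted p = 0.00224) and 5.72-fold lower than in stalk (-2.52 ± 0.33; adjusted p = 0.00244). Epha4 differed by 0.56 ± 0.13 between stalk and mesenchyme, which passed with the block only (adjusted p = 0.0561 without and 0.0136 with it). Epha5, Epha6, Epha8 and Epha10 were not called, and Epha6 was below the lower quartile in all 3 tissues.

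Of the 4 EphB receptors, Ephb3 was higher and Ephb1 lower in tip. Ephb3 read 8.40 and 8.26 in the tip arrays, 7.90 and 8.02 in the stalk arrays and 7.38 and 7.63 in the mesenchyme arrays and differed by 0.83 ± 0.14 between tip and mesenchyme (adjusted p = 0.00579). Ephb1 read 5.60 and 5.70 in the tip arrays, 6.01 and 5.97 in the stalk arrays and 6.43 and 6.32 in the mesenchyme arrays and differed by -0.73 ± 0.12 (adjusted p = 0.00543). Neither was called between tip and stalk. Ephb4, the main receptor of Efnb2 in blood vessels, was not called (-0.07 ± 0.12 for tip against mesenchyme), and neither was Ephb6, which lacks kinase activity.

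**Figure D3:**
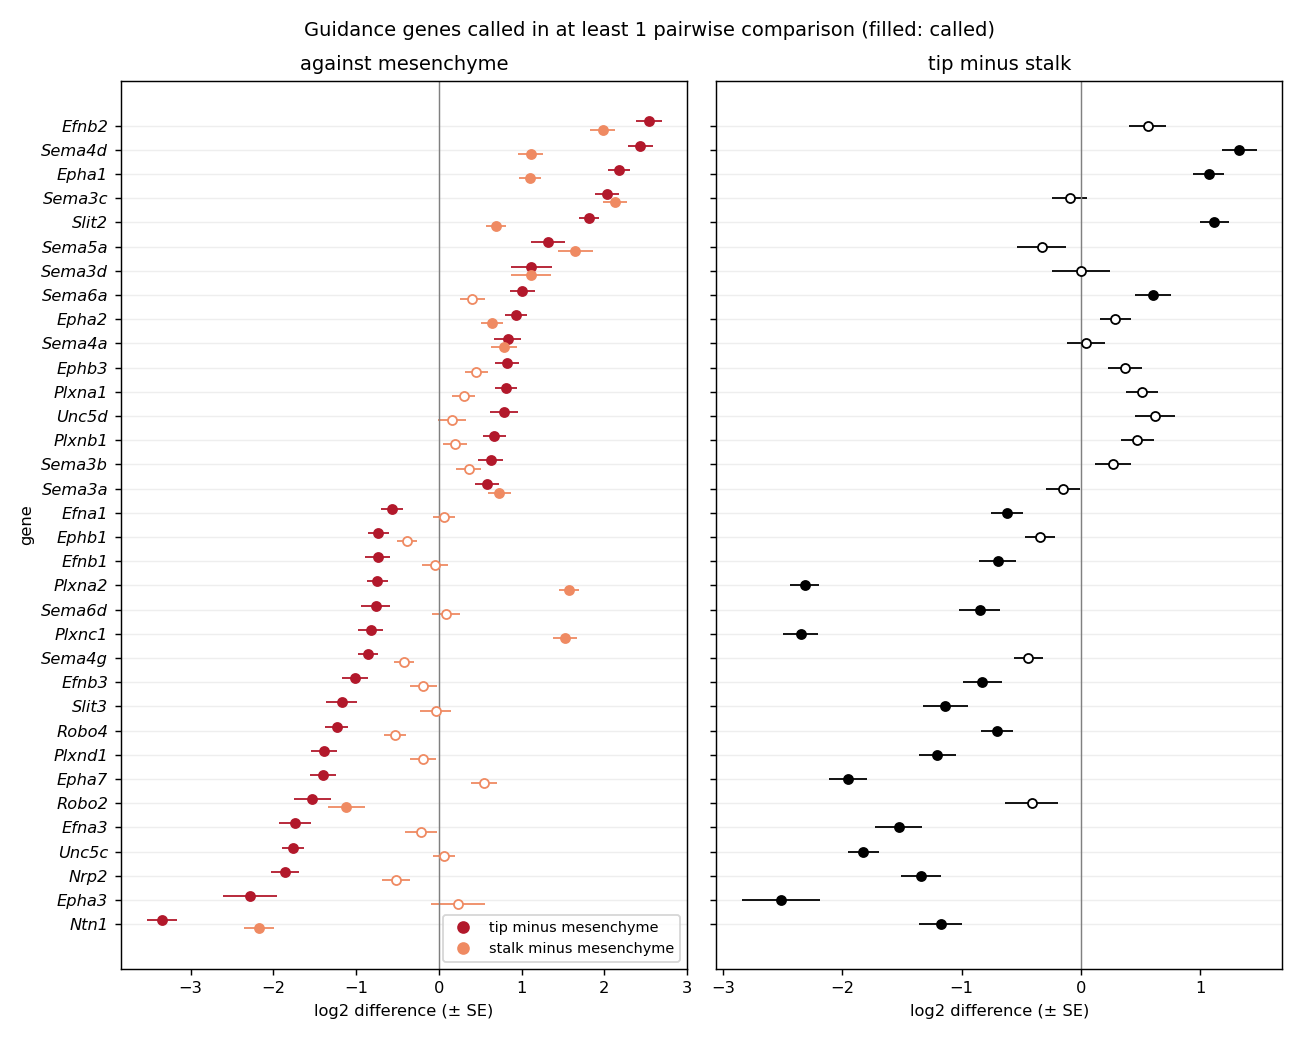
Log2 differences with standard errors for the 34 guidance genes called in at least 1 pairwise comparison, with tip minus mesenchyme and stalk minus mesenchyme on the left and tip minus stalk on the right. Filled points passed an adjusted p of 0.05. Ntn1 is lowest in tip against mesenchyme at -3.35 and Efnb2 highest at 2.54, and Plxna2 and Plxnc1 lie on opposite sides of 0 for stalk and tip.

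A list of 30 known ligand and receptor pairs was read side by side, and 28 had both partners measured. For tip against mesenchyme both partners were called in 10 pairs, in opposite directions in 6 and in the same direction in 4. The opposite ones were Slit2 (higher) with Robo2 (lower), Sema3c (higher) with Nrp2 (lower), Sema6a (higher) with Plxna2 (lower), Sema6d (lower) with Plxna1 (higher), Efnb1 (lower) with Ephb3 (higher) and Efna1 (lower) with Epha2 (higher). Sema4d and Plxnb1 were both higher in tip, as were Sema5a and Plxna1, and Ntn1 and Unc5c were both lower, as were Slit3 and Robo2. In this comparison 34 of the 69 genes were called, so pairs with both partners called are common without any link between the partners. Both partners were called in 1 pair for stalk against mesenchyme and in 2 for tip against stalk. The calls of Efna1, Efnb1 and Sema6d were lost in some alternatives, as given above. The pairs share members and are given as a description.

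A list of 39 cytoplasmic proteins that carry guidance signals had 37 measured genes. Of these, 3 were higher and 8 lower in tip than in mesenchyme, where 7.38% and 8.37% of all genes were called. In stalk 3 were higher and 1 lower than in mesenchyme (4.3% and 1.24% of all genes), and in tip 1 was higher and 5 lower than in stalk (2.86% and 6.97%). The shares higher in tip were thus near those of all genes. With the replicate block the counts were 5 and 12 for tip against mesenchyme (11.2% and 12.8% of all genes), 7 and 2 for stalk against mesenchyme (6.77% and 3.17%) and 3 and 14 for tip against stalk (8.92% and 11.7%). Srgap3, which encodes a Robo-binding protein, was higher in stalk than in mesenchyme by 1.46 ± 0.12 (adjusted p = 0.000385). The collapsin response mediators Dpysl4 (-2.38 ± 0.16; adjusted p = 3.69e-05) and Crmp1 (-2.31 ± 0.12; adjusted p = 1.4e-05) were lower in tip than in mesenchyme. So were 7 of 10 neuron, 11 of 11 stroma, 10 of 12 nephron progenitor and 13 of 15 endothelium markers, whose part was not tested. The stalk arrays of Dpysl4 (9.23 and 9.15) lay above its mesenchyme arrays (8.71 and 8.44), and those of Crmp1 (7.56 and 7.67) below (8.56 and 8.54). Dpysl5, of the same family, was higher in tip (1.02 ± 0.15; adjusted p = 0.00221), as was Ablim1, an actin-binding protein gene (1.38 ± 0.17; adjusted p = 0.000862), both named after their values were seen. Of 29 measured other guidance ligands, receptors and co-receptors, 7 were higher and 7 lower in tip than in mesenchyme, 3 higher and 2 lower in stalk than in mesenchyme, and 4 higher and 7 lower in tip than in stalk, to be read against the shares of all genes given for the cytoplasmic list. With the block 6 were higher and 3 lower in stalk than in mesenchyme, and 6 higher and 7 lower in tip than in stalk. The adhesion molecule gene L1cam was higher in tip than in mesenchyme (2.70 ± 0.12; adjusted p = 8.18e-06), and its relative Chl1 was lower (-3.27 ± 0.12; adjusted p = 3.58e-06). Chl1 lay below the lower quartile in tip, which leaves the size of its difference uncertain. Between tip and stalk, Nrcam was higher in tip (1.65 ± 0.19; adjusted p = 0.00134) and Flrt3, an Unc5-binding membrane protein gene, was lower (-2.46 ± 0.18; adjusted p = 0.000172). Lrrtm1 was higher in tip than in mesenchyme by 3.83 ± 0.17 (adjusted p = 6.71e-06), with the same limit, since it lay below the lower quartile in mesenchyme.

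mIMCD-3 was set beside the 4 bud arrays by size alone, since it has 1 array and no test is possible. A gene was counted when it differed from the bud mean by at least 1 log2 unit and lay outside all 4 bud arrays. By this rule 8 guidance genes were higher in mIMCD-3 and 25 lower, where 9.71% and 9.27% of all genes were counted. The median difference of the 69 genes was -0.70, and that of all genes -0.05. In mIMCD-3 the stroma markers averaged 5.23, the endothelium markers 4.79 and the ureteric epithelium markers 8.02, each below all 4 bud arrays. The part of other cell types of the dissected bud in these differences was not tested. The mIMCD-3 array was added to tissue arrays of an earlier study, so line, culture, batch and the cell mix of the dissected bud cannot be told apart.

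Of the 8 higher genes, 3 were class 3 semaphorins. Sema3a lay at 11.08 in mIMCD-3, against 6.83 to 7.20 in the bud arrays, a difference of 4.08. Sema3e, the ligand of Plxnd1, lay at 8.21 in mIMCD-3, against 4.53 to 4.90 in the bud arrays, a difference of 3.46, and was not called between the dissected parts. Sema3c differed by 1.23. Nrp2 lay at 7.96 in mIMCD-3, against 4.79 to 6.41 in the bud arrays, a difference of 2.32. Ntn1 lay at 7.33 in mIMCD-3, against 4.59 to 6.08 in the bud arrays, a difference of 1.90. In mIMCD-3, Ntn1 was below both mesenchyme arrays and Nrp2 above all 6 tissue arrays. Efna1, the ephrin-A1 gene, lay at 9.48 in mIMCD-3, against 7.03 to 7.79 in the bud arrays (2.02). Its receptor gene Epha2 lay at 8.75 in mIMCD-3, against 7.13 to 7.54 in the bud arrays (1.41), so both were above all bud arrays. Plxnb2 differed by 1.11.

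The 6 lowest differences were those of Sema3d (-5.68), Sema5a (-4.82), Unc5c (-4.12), Sema6d (-3.25), Epha3 (-2.99) and Sema6a (-2.87). Sema3d lay at 3.40 in mIMCD-3, against 8.80 to 9.37 in the bud arrays. Sema5a lay at 3.28 in mIMCD-3, against 7.67 to 8.38 in the bud arrays. Sema3d, Sema5a and Epha3 in mIMCD-3 were below the lower quartile of that array, 3.99. Slit2 lay at 8.55 in mIMCD-3, against 10.04 to 11.21 in the bud arrays, also below the mesenchyme arrays, and Robo1 at 5.70 in mIMCD-3, against 7.98 to 8.73 in the bud arrays. Sema4d (9.40) and Epha1 (7.12), which were higher in tip than in stalk, were in mIMCD-3 within the range of the bud arrays. Efnb2, higher than mesenchyme in both tip and stalk, lay at 9.76 in mIMCD-3, against 10.42 to 11.09 in the bud arrays.

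**Figure D4:**
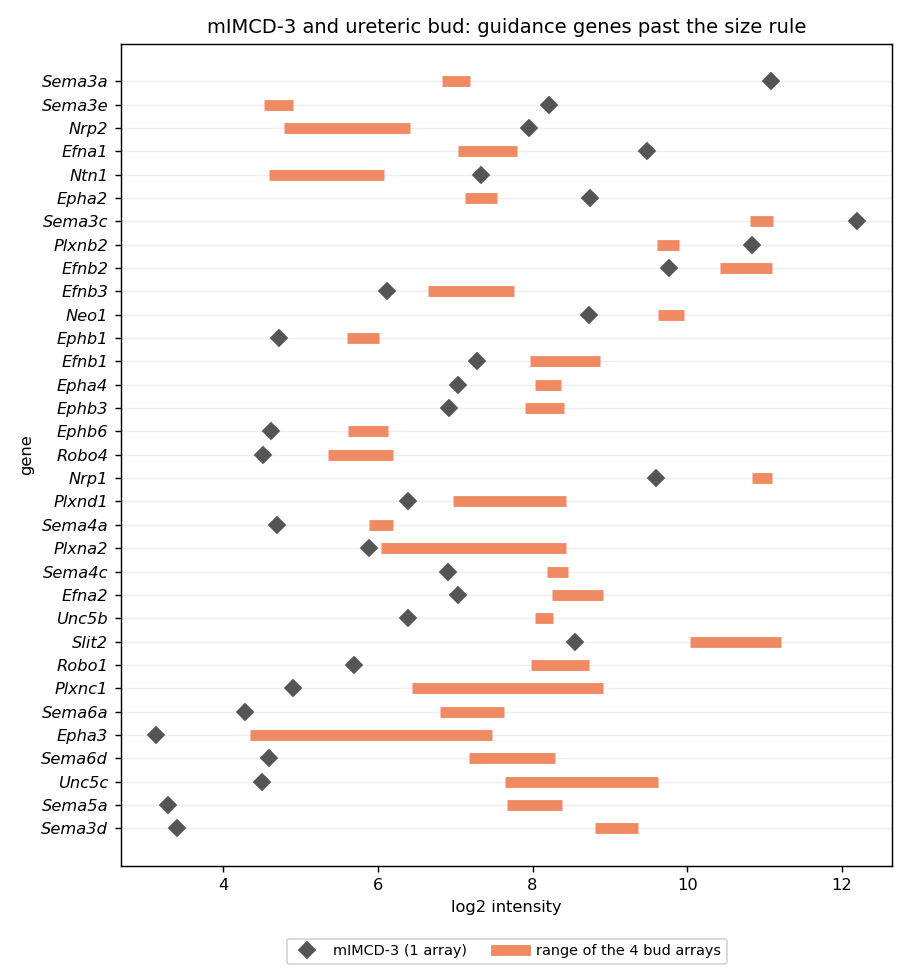
Log2 intensity of the 33 guidance genes past the size rule in mIMCD-3 (diamonds, 1 array) and the range of the 4 ureteric bud arrays (bars). The 8 genes at the top, from Sema3a to Plxnb2, lie right of the bars and the 25 below lie left of them.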

How the data were processed

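RNA of mouse E12.5 ureteric bud tip, stalk and metanephric mesenchyme (2 arrays each) and of mIMCD-3 (1 array) was measured on Affymetrix Mouse Genome 430 2.0 arrays. The deposited values are linear intensities per probe set that the authors computed by RMA (robust multichip analysis) over all 7 arrays, per the submitters' processing notes and the series' design text; its software is not given in the sources used here. RMA corrects the background, normalizes quantiles and summarises probes, gives no detection call and compresses differences of dim genes. No depth applies to arrays, and their number limits the precision.

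Intensities were taken to log2. Of 45101 probe sets, 64 controls were left out, 34945 had 1 gene in the platform annotation, 932 several and 9160 none, and only those with 1 gene were used. Each of 18193 genes was represented by its probe set with the highest mean over the 7 arrays. All 69 guidance symbols matched RefSeq. limma 3.58.1 (R 4.3.3; lmFit and eBayes) fitted the 3 tissue groups together with 3 residual degrees of freedom, and adjusted p-values are Benjamini-Hochberg over all genes. The script was tested on simulated data. Nothing in the labels ties replicates to separate animals or pools, so p-values measure the spread between these arrays. Same-numbered arrays deviated together (correlations of replicate 1 minus replicate 2 of 0.43 for tip and stalk, 0.57 for tip and mesenchyme and 0.39 for stalk and mesenchyme), so a second fit that blocks on that number, with 2 residual degrees of freedom, is given beside results whose call it changes. mIMCD-3 was described by size only.

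The guidance genes, the lists and the pairs were chosen with earlier results of these data known. All array values were given for the 10 largest called differences of each comparison, and other called genes by their difference. Alternatives were the block, trended robust variance, median centring, removal of the dimmest 40% of genes, the mean of a gene's probe sets, every probe set, only the compared arrays, and each array left out. In a pairwise comparison, leaving out an array of the part not compared gave the same fit as only the compared arrays. These are therefore not separate alternatives. Plots were made in Python 3.11.15 using matplotlib 3.10.9. One result on a listed gene is not reported here.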

Additional observations from a re-analysis of the deposited data

Results flagged for a closer look

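Plxna2 and Plxnc1 differed from mesenchyme in opposite directions in stalk and tip. For Plxnc1 the tip side of this is weaker: 1 of its 6 probe sets was called lower in tip than in mesenchyme. With the mean of the probe sets that call was lost. Both arrays of stalk lay above both arrays of mesenchyme and both arrays of tip below them, and the difference of tip minus stalk itself passed in limma, at -2.32 for Plxna2 (adjusted p = 4.14e-05) and -2.35 for Plxnc1 (adjusted p = 7.86e-05).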

How the results depend on the processing

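Of 92 called gene results, 48 kept their call under every alternative run at the gene level. Of 1092 alternative values, 960 kept the call, 132 lost it and 0 changed direction. The block, trended robust variance, removal of the dimmest genes and the compared arrays alone return the same difference, so direction could not change there. The same holds in a pairwise comparison when an array of the part not compared is left out. That fit repeats the one with only the compared arrays, so the tallies count it more than once. Single probe sets were not among these values, and some of those of called genes had the other sign. With the replicate block, guidance genes lower in bud than in mesenchyme numbered 17 (10 without it), lower in stalk 5 (2 without it) and higher in tip than in stalk 8 (4 without it), and no call was lost. Genes higher in tip than in stalk numbered 8 with trended robust variance, 7 after median centring and 7 of 51 tested without the dimmest 40% of genes, where 4.89%, 3.72% and 5.88% of all genes were called. Those lower in stalk than in mesenchyme numbered 1 of 51 without the dimmest (1.77% of all genes). With tip and stalk fitted as 1 bud group, 6 were higher and 2 lower (2.52% and 0.467% of all genes), since the differences between tip and stalk then enter the spread. Leaving out each array gave 9 to 17 higher and 5 to 14 lower in bud, 7 to 13 and 1 to 2 in stalk and 12 to 16 and 14 to 20 in tip against mesenchyme, and 3 to 5 and 10 to 16 in tip against stalk. The count higher in bud was 9 without mesenchyme replicate 1 or mesenchyme replicate 2, and that lower in bud 5 without mesenchyme replicate 1. The count higher in stalk was 7 without stalk replicate 1, stalk replicate 2 or mesenchyme replicate 2, and that lower in stalk was 1 without stalk replicate 2 or mesenchyme replicate 1. Where leaving out an array gave the lowest count of a comparison, the share of all genes called was also below that of the main fit. The exception was higher in tip than in stalk without tip replicate 1, where the share of all genes rose. Apart from that case, the drops came with a general loss of calls and were not particular to guidance genes. Counting every probe set gave 19 and 11, 16 and 2, 19 and 18, and 6 and 15 guidance genes higher and lower for bud, stalk and tip against mesenchyme and tip against stalk. These last counts have no share of all genes beside them. At 2 log2 units, 4 were higher and 9 lower in mIMCD-3 (2.17% and 4.07% of all genes). With 2 arrays a group and no detection calls, small differences and dim genes are the least certain.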

Other observations

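For several guidance genes, probe sets other than the brightest gave another result. These genes were chosen after their values were seen. The brightest probe set of Sema4f, a membrane semaphorin gene, was not called between tip and mesenchyme (0.25 ± 0.23; adjusted p = 0.636 in limma). Another probe set of Sema4f was higher in tip than in mesenchyme by 1.67 and than in stalk by 0.97 (adjusted p = 0.000422 and 0.0125 over all probe sets). Of Sema3f, a secreted ligand of Nrp2, 2 other probe sets were higher in tip than in stalk (0.74 and 0.59; adjusted p = 0.019 and 0.0438). For Unc5b, another probe set was higher than in mesenchyme in tip (0.62; adjusted p = 0.0158) and in stalk (0.78; adjusted p = 0.0132). Of the called genes with several probe sets, 18 of 24 had all of them on the same side for tip against mesenchyme, and 0 genes had probe sets called in both directions. The transcripts that each probe set reads were not examined.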
